A study of Mus musculus with 9 samples.

Results

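Transcripts of 10 pluripotency transcription factors were measured in mouse 8-cell embryos: *Pou5f1*, *Nanog*, *Sox2*, *Sall4*, *Klf4*, *Klf5*, *Klf17*, *Esrrb*, *Tfcp2l1* and *Zfp42*. They were chosen by gene symbol, and each symbol matched 1 of the 55335 entries in every library. Embryos of ICR mice were made by in vitro fertilization and injected as zygotes with siRNA, and RNA was taken at the 8-cell stage. All 3 groups were injected. The control embryos received a nontargeting siRNA, the MFN1-KD embryos received siRNA against *Mfn1*, which encodes a GTPase of the outer mitochondrial membrane that fuses mitochondria, and the H3.3-KD embryos were given siRNA targeting both genes of the histone variant H3.3, *H3f3a* and *H3f3b*. Each group had 3 libraries, each a pool for which the labels give between 5 and 10 embryos. The comparisons address how depletion of either protein alters gene expression in 8-cell embryos. Whether the 3 libraries of a group came from separate rounds of fertilization is not stated, so p-values measure the spread between these libraries, which may be partly technical.

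Pluripotency is the capacity of the early embryo's cells to form every tissue of the body. In mouse it rests on a core of POU5F1 (also called OCT4), SOX2 and NANOG, which bind many enhancers together, and on naive-state factors such as KLF4, KLF5, ESRRB and TFCP2L1 that sustain the core in embryonic stem cells. Several of these genes are switched on from the embryonic genome during cleavage, before the inner cell mass and the trophectoderm separate, and signalling through LIF and STAT3 favours the network while FGF and ERK signalling drives exit from it. H3.3 is placed into chromatin independently of DNA replication, largely at active genes and enhancers.

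The deposited unit was FPKM (fragments per kilobase of transcript, scaled to the library's total), which allows levels of different genes to be compared per length. It carries no read counts, so the depth behind a value cannot be given, and a gene with no signal is called listed at 0. The targeted transcripts followed the labels. *Mfn1* was between 1.15 and 9.54 FPKM in MFN1-KD, between 22.55 and 51.57 FPKM in control and between 40.02 and 100.24 FPKM in H3.3-KD. *H3f3a* was between 117 and 170 FPKM in H3.3-KD and between 1594 and 2110 FPKM in control, and *H3f3b* was between 171 and 311 FPKM against 2895 to 3166 FPKM. In MFN1-KD *H3f3a* was between 1288 and 1371 FPKM and *H3f3b* between 2695 and 2836 FPKM. Both lay below every control there, as did 16.8% of all genes tested, and neither was called (log2 fold changes -0.52 and -0.10). Genes above 0 FPKM numbered 21643 to 22507 in control, 23655 to 24820 in H3.3-KD and 15577 to 20842 in MFN1-KD, where replicate 3 had the fewest. All 8 markers of the 8-cell embryo and morula were above 0 FPKM in every library except MFN1-KD replicate 3, in which *Gata3* and *Krt8* were listed at 0, and the 7 sperm genes summed to at most 2.93 FPKM in any library. The 14 cumulus and granulosa genes summed to 16.9 to 30.9 FPKM in control, 10.3 to 19.9 FPKM in MFN1-KD and 39.0 to 67.9 FPKM in H3.3-KD. Only *Amhr2* of these 14 was abundant enough to be tested, and it was called higher in H3.3-KD (log2 fold change 1.11) but not in MFN1-KD, and 8, 8 and 3 of them were listed at 0 in every library of control, MFN1-KD and H3.3-KD. Their part in the results was not tested. In pools of embryos, fewer cells of a type and less RNA per cell cannot be told apart.

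In control embryos the most abundant of the 10 factors was *Sall4*, a zinc finger partner of POU5F1, at 118.6 ± 18.2 FPKM (SD, n = 3). *Klf5*, *Zfp42* (REX1, a marker of undifferentiated cells) and *Klf17* followed at 43.8 ± 12.8, 43.6 ± 5.82 and 36.9 ± 11.4 FPKM, and these neighbours overlapped in range. *Nanog* at 20.3 ± 3.45 FPKM did not overlap with *Klf17*, but it overlapped with *Klf4* at 17.1 ± 5.49 FPKM. *Klf4*, *Tfcp2l1* (9.53 ± 5.40 FPKM), *Pou5f1* (7.24 ± 1.95 FPKM) and *Esrrb* (5.16 ± 2.09 FPKM) followed, each overlapping with its neighbour in this order. *Sox2* was last at 0.033 ± 0.058 FPKM and did not overlap with *Esrrb*. Among the 13011 genes that averaged at least 1 FPKM, control *Sall4* stood at percentile 91.2 and control *Pou5f1* at percentile 52.6.

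The order differed in the knockdowns. In MFN1-KD it was led by *Sall4* (102.3 ± 23.1 FPKM) and *Klf5* (64.1 ± 1.36 FPKM), whose ranges did not overlap with each other or with *Klf4*, and *Pou5f1* was at 2.24 ± 1.74 FPKM, next to last. In H3.3-KD it was led by *Klf17* (283.5 ± 106.2 FPKM) and *Pou5f1* (261.8 ± 174.9 FPKM), which overlapped in range, and *Sall4* followed *Klf5* at 47.1 ± 4.07 FPKM. *Pou5f1* therefore stood at percentile 95.6 of the genes tested in H3.3-KD and at percentile 26.4 in MFN1-KD.

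**Figure D1:**
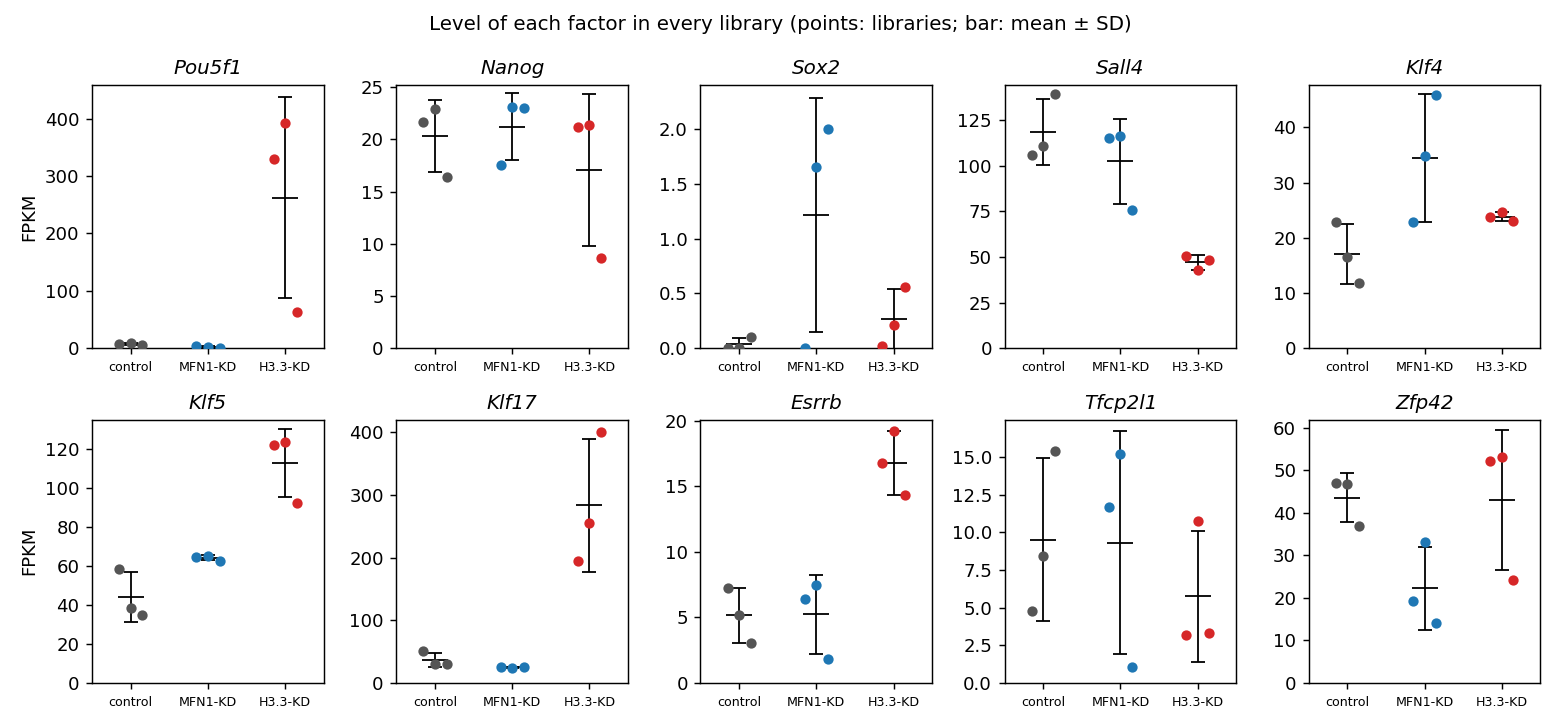
FPKM of each of the 10 factors in every library of control, MFN1-KD and H3.3-KD, with the mean ± SD of the 3 libraries as a bar; each panel has its own linear axis from 0. *Pou5f1*, *Klf17*, *Klf5* and *Esrrb* were higher in all 3 H3.3-KD libraries than in any other library, and *Sall4* was lower in all 3 of them.

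The regions before the start sites of the factors whose changes are described next are shown for their sequence. RefSeq's promoter table (GRCm38.p6, the assembly also called mm10) held 11 start sites for 8 of the 10 factors, and *Klf5* and *Sall4* have no entry. The stretch from 250 to 21 bases before each start was read 5′ to 3′ on the gene's strand. Capitals mark CACCC or its reverse complement GGGTG (the box that KLF zinc fingers bind), the octamer core ATGCAAA or TTTGCAT (POU factors) and ACAATG or CATTGT (a SOX motif), each searched on both strands with overlapping matches counted. *Pou5f1*, *Klf17* and *Esrrb*, which were higher after H3.3 knockdown, are printed beside *Nanog*, which was not called. *Pou5f1*, *Esrrb* and *Nanog* each have 2 start sites in the table, and the stretch at the lower coordinate is shown:
Pou5f1, chr17:35505782-35506011, + strand: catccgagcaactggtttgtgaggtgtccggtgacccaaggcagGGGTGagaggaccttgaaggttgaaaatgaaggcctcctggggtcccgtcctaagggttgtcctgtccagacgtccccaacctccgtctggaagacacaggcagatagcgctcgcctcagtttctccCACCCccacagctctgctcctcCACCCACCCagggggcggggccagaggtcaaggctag
Klf17, chr4:117765687-117765916, - strand: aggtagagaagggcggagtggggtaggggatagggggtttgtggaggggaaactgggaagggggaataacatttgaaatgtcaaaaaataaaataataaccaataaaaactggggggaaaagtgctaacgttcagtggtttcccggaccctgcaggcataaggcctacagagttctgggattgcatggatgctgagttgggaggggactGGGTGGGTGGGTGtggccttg
Esrrb, chr12:86360867-86361096, + strand: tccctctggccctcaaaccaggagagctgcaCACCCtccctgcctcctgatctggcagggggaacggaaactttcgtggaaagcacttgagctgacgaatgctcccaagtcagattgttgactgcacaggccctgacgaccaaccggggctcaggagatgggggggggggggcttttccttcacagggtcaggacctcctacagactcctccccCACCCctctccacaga
Nanog, chr6:122707239-122707468, + strand: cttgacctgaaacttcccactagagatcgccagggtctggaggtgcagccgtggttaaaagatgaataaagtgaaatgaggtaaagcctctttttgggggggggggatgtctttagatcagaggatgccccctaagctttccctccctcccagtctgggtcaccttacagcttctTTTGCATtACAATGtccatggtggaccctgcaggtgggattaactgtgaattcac

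The *Pou5f1* stretch printed held 4 CACCC matches and the *Klf17* stretch held 3, which overlap each other by single bases within 41 to 29 bases before the start. Among 32531 stretches of this length, 49.3% held at least 1 CACCC match and 5.83% held at least 3. The *Esrrb* stretch held 2. The *Nanog* stretch held none but had an octamer core 1 base away from a SOX motif, together at 75 to 62 bases before the start. The other start sites gave different counts. The stretch before the other *Nanog* start (chr6:122707315-122707544), which overlaps the printed one by 154 bases, held 3 CACCC matches, that before the other *Pou5f1* start (chr17:35508557-35508786) held 0, and that before the other *Esrrb* start held 1. Of the 8 factors with an entry, 5 had a CACCC match in at least 1 stretch, 3 an octamer core, 2 the SOX motif and 0 the ESRR motif AAGGTCA or TGACCTT. The octamer core and the SOX motif seen before both *Nanog* starts are the same genomic letters. Over all 32531 stretches, 3.90% held the octamer core, 9.92% the SOX motif and 3.83% the ESRR motif. *Sox2* and *Zfp42* also had the octamer core. The *Zfp42* stretch held 3 CACCC matches as well, and those of *Klf4* and *Tfcp2l1* held 0, and none of these genes was called in H3.3-KD. The *Klf4* and *Sox2* stretches were GC-rich, at 72.2% and 73.0% GC with 26 and 27 CpG, whereas the *Klf17* and *Nanog* stretches had 50.9% and 50.0% GC with 3 and 2 CpG, against medians of 52.2% and 5 over all stretches. A match is a description of the letters and not a site at which a factor was measured.

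Depletion of H3.3 changed 5 of the 9 factors that could be tested. *Pou5f1*, *Klf17*, *Klf5* and *Esrrb* rose and *Sall4* fell, whereas *Nanog*, *Klf4*, *Tfcp2l1* and *Zfp42* did not pass the test. Values were compared as log2(FPKM + 1) in a limma model over the 13011 genes that averaged 1 FPKM or more across the 9 libraries, and a call means a Benjamini-Hochberg adjusted p under 0.05 and a change of more than 2-fold. *Sox2* averaged under 1 FPKM and was not tested. In GENCODE M21 (GRCm38) the 5 genes lie at chr17:35506018-35510772 (*Pou5f1*), chr4:117757836-117765648 (*Klf17*), chr14:99298691-99315036 (*Klf5*), chr12:86361117-86521628 (*Esrrb*) and chr2:168748332-168767943 (*Sall4*), all protein-coding. Of all genes tested, 20.2% were called higher and 7.54% lower in H3.3-KD, against 4 and 1 of the 9 factors. All 3 H3.3-KD libraries lay above all controls for 34.5% of genes and below for 18.9%, against 5 and 1 of the 10 factors.

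*Pou5f1*, which encodes the POU factor at the centre of the network, changed most. It was at 7.73, 8.90 and 5.10 FPKM in control and at 330.26, 392.19 and 63.06 FPKM in H3.3-KD. The lowest H3.3-KD library, replicate 3, still lay above every control. The log2 fold change was 4.65 (SE 0.68, 95% interval 3.13 to 6.17, limma adjusted p = 9.02e-04), rank 46 of the 13011 genes by size of change. Without H3.3-KD replicate 3 it was 5.48.

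*Klf17* encodes a KLF factor transcribed in oocytes and early embryos. Its control libraries were at 50.07, 30.69 and 29.84 FPKM and its H3.3-KD libraries at 194.71, 254.65 and 401.20 FPKM, so the groups were far apart and the H3.3-KD library with the least *Pou5f1* had the most *Klf17*. The log2 fold change was 2.89 (SE 0.30, 95% interval 2.21 to 3.56, limma adjusted p = 1.99e-04). *Klf17* shares sequence with the pseudogene *Gm20690*, at 99.1% identity over 327 bases, so reads from either may have been assigned to the other. The match was made by symbol, and which of the 2 entries with this symbol holds the shared bases was not determined. The more abundant *Gm20690* entry was at 11.64, 8.95 and 15.41 FPKM in control, at 136.52, 90.48 and 261.06 FPKM in H3.3-KD and at 0.55, 2.71 and 0.00 FPKM in MFN1-KD. This entry was higher in all 3 H3.3-KD libraries and lower in all 3 MFN1-KD libraries than in any control. How the reads were shared between both genes was not tested.

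*Klf5*, a KLF factor needed for the inner cell mass and the trophectoderm, was at 58.44, 38.22 and 34.80 FPKM in control and at 121.84, 123.30 and 92.40 FPKM in H3.3-KD. The log2 fold change was 1.36 (SE 0.25, 95% interval 0.81 to 1.92, limma adjusted p = 0.00269). *Esrrb*, an orphan nuclear receptor of the naive network, was at 7.25, 5.16 and 3.08 FPKM in control and at 16.80, 19.22 and 14.34 FPKM in H3.3-KD. The groups did not overlap for either gene. For *Esrrb* the log2 fold change was 1.58 (SE 0.45, 95% interval 0.58 to 2.58, limma adjusted p = 0.0229). It no longer passed when control replicate 2 was left out (adjusted p = 0.0641), nor without control replicate 3 (0.0992), H3.3-KD replicate 1 (0.0559) or H3.3-KD replicate 2 (0.0752).

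*Sall4* went the other way. It was at 105.77, 110.70 and 139.43 FPKM in control and at 50.69, 42.70 and 48.05 FPKM in H3.3-KD, where the 3 libraries were close together and all lay below every control. The log2 fold change was -1.31 (SE 0.24, 95% interval -1.83 to -0.78, limma adjusted p = 0.00273).

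The other 4 factors tested did not pass in H3.3-KD. *Nanog*, the homeobox factor of the core, was at 21.69, 22.91 and 16.41 FPKM in control and at 21.16, 21.43 and 8.63 FPKM in H3.3-KD. Its log2 fold change was -0.33 (95% interval -1.12 to 0.46, limma adjusted p = 0.521), and without H3.3-KD replicate 3 it was 0.08. *Zfp42* was at 47.15, 46.75 and 36.88 FPKM in control and at 52.16, 53.07 and 24.12 FPKM in H3.3-KD, and the log2 fold change was -0.09 (95% interval -0.93 to 0.75, limma adjusted p = 0.882). For both genes H3.3-KD replicate 3 alone lay below the controls while the other two libraries lay within or above their range.

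*Klf4*, one of the reprogramming factors, was at 22.79, 16.52 and 11.84 FPKM in control and at 23.79, 24.65 and 23.08 FPKM in H3.3-KD. The groups did not overlap, but by only a narrow margin, and the log2 fold change was 0.51 (95% interval -0.21 to 1.22, limma adjusted p = 0.262). *Tfcp2l1*, a naive factor downstream of LIF and STAT3, varied most within groups. It was at 4.78, 8.40 and 15.40 FPKM in control and at 3.15, 10.75 and 3.33 FPKM in H3.3-KD, and its interval from -2.39 to 1.00 around a log2 fold change of -0.69 spans changes of more than 2-fold down (limma adjusted p = 0.527). *Sox2*, the partner of POU5F1 at composite sites, was listed at 0 in 2 control libraries and at 0.10 FPKM in the third, and reached 0.02, 0.21 and 0.56 FPKM in H3.3-KD.

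**Figure D2:**
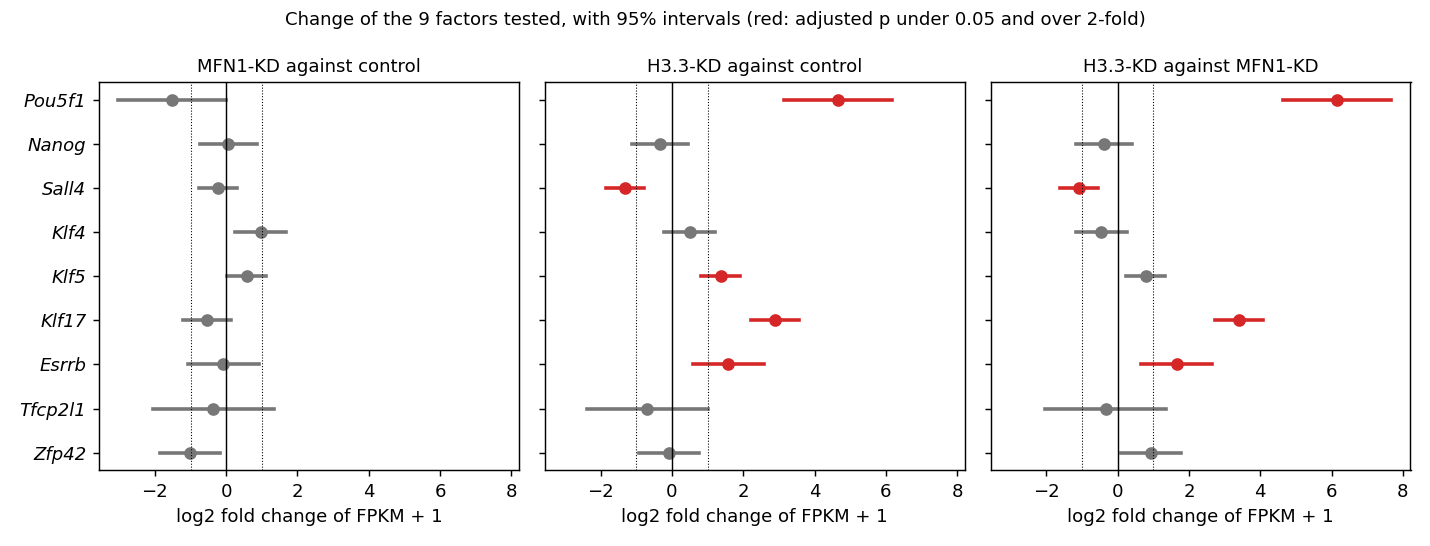
Log2 fold changes of FPKM + 1 for the 9 factors tested, with 95% intervals from the limma model, in MFN1-KD against control, H3.3-KD against control and H3.3-KD against MFN1-KD; red marks an adjusted p under 0.05 with more than 2-fold, and dotted lines mark 2-fold. No factor is red in MFN1-KD against control, 5 are red in H3.3-KD against control and 4 in the direct comparison.

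The H3.3-KD libraries differed from control over all genes as well. The median log2 fold change of the 13011 genes was 0.26, and 0.51 for the 9 factors. Median-ratio scaling of the libraries moved the median of all genes to -0.00, and relative to it the changes were 4.31 for *Pou5f1*, 2.54 for *Klf17*, 1.02 for *Klf5*, 1.26 for *Esrrb* and -1.65 for *Sall4*, all 5 still called. Upper-quartile scaling left 3 called, with *Klf5* at 0.94 and *Esrrb* at 1.19 (adjusted p = 0.0555). Changes also rose with the GC content of the transcripts, from a median of -0.29 in the lowest decile to 1.10 in the highest, in which 45.1% of genes were called higher. *Pou5f1*, at 57.6% GC, lies in that highest decile, and 9 of its 1282 genes changed at least as far upward as *Pou5f1* did, itself included. *Klf17* lies in decile 6 at 50.0% GC, where 16 of 1282 genes changed as far upward, itself included. *Sall4* at 53.8% GC fell while the median change of its decile was 0.63, and 62 of 1282 genes there fell as far, itself included. *Esrrb* at 54.9% GC was less apart, with 315 of 1281 genes in its decile changed as far upward. When each library's trend over GC and length was removed, *Pou5f1* (3.88), *Klf17* (2.30) and *Sall4* (-2.11) stayed called, whereas *Klf5* (0.78) fell under 2-fold and *Esrrb* (0.63, adjusted p = 0.25) lost its call. Under the same removal *Klf4* changed sign, to -0.50, and was still not called. The part of GC content in these results was not tested further.

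**Figure D3:**
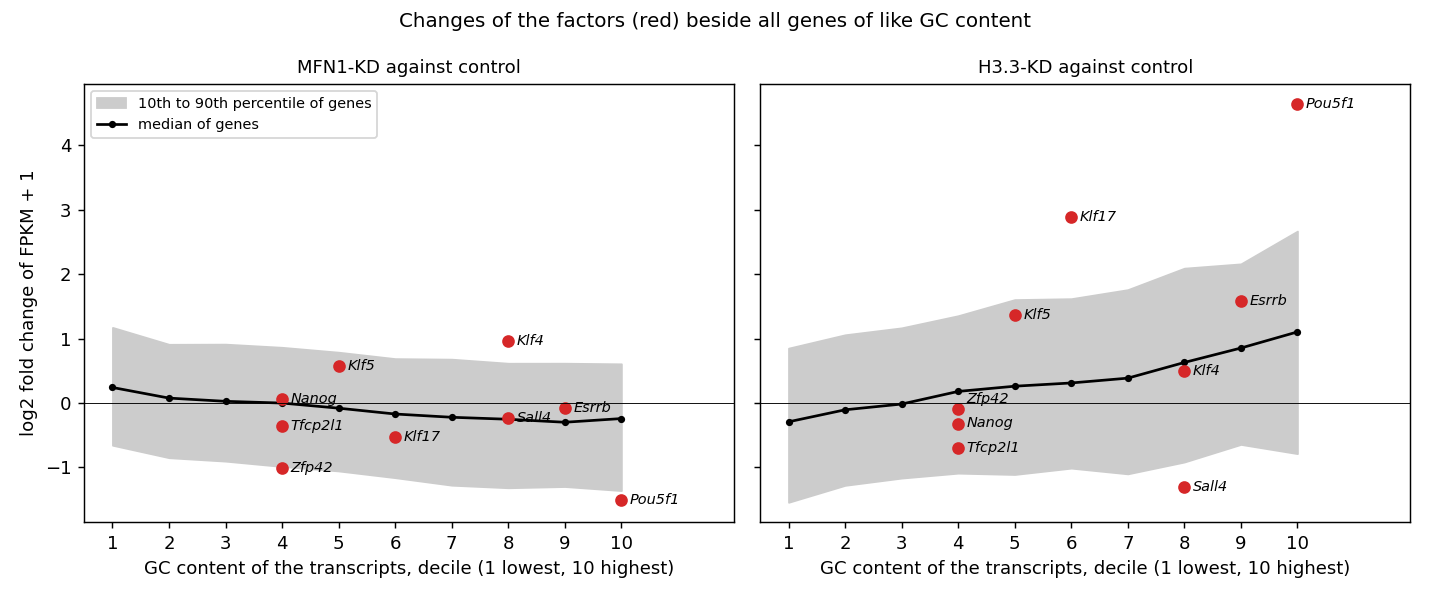
Log2 fold change of FPKM + 1 against the decile of transcript GC content in MFN1-KD and H3.3-KD, each against control; the line is the median of the genes in a decile, the grey band their 10th to 90th percentile, and red points the 9 factors. In MFN1-KD the median runs from 0.24 in the lowest decile to -0.24 in the highest. In H3.3-KD the median runs from -0.29 to 1.10, *Pou5f1* and *Klf17* lie above the band and *Sall4* below it.

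Depletion of MFN1 left no factor called. *Pou5f1* had the largest change, downward, and *Klf4* and *Zfp42* had the smallest p-values, upward and downward, but none of these passed adjustment over all genes. In MFN1-KD 1.09% of genes tested were called higher and 2.05% lower, against 0 of the 9 factors, 3 of which had an unadjusted p under 0.05 (*Zfp42*, *Klf4* and *Klf5*), as did 23.2% of all genes. At the study's own threshold, an unadjusted p under 0.05 with more than 2-fold, 5.02% of genes passed as higher and 9.05% as lower, against 0 and 1 of the 9 factors. At that threshold in H3.3-KD, 23.9% of genes passed as higher and 9.39% as lower, against the same 4 and 1 factors as above.

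*Zfp42* was at 19.33, 33.21 and 14.17 FPKM in MFN1-KD, and all 3 libraries lay below the lowest control at 36.88 FPKM. The log2 fold change was -1.02 (SE 0.38, 95% interval -1.86 to -0.17, limma unadjusted p = 0.0225, adjusted p = 0.147). Its pseudogene *Zfp42-ps1*, which is 98.1% identical over 266 bases, was between 0.52 and 1.78 FPKM in MFN1-KD and between 2.09 and 3.49 FPKM in control. *Klf4* was at 22.76, 34.78 and 45.79 FPKM in MFN1-KD, of which the lowest lay within the control range, and its log2 fold change was 0.96 (95% interval 0.25 to 1.68, limma adjusted p = 0.113).

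*Pou5f1* was at 3.68, 2.74 and 0.30 FPKM in MFN1-KD, below every control, with a log2 fold change of -1.51 (95% interval -3.03 to 0.01, limma adjusted p = 0.217). Replicate 3, the library with the fewest genes above 0, carried much of this difference, and without it the log2 fold change was -0.95. *Klf17* was also below every control, at 25.17, 23.86 and 24.56 FPKM, with a log2 fold change of -0.53 (limma adjusted p = 0.33). *Klf5* was above every control, at 64.71, 65.11 and 62.58 FPKM, with a log2 fold change of 0.58 (limma adjusted p = 0.196). Over all genes tested, the 3 MFN1-KD libraries lay above all controls for 11.4% of genes and below for 16.8%, against 1 and 3 of the 10 factors.

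The remaining factors overlapped between MFN1-KD and control. *Nanog* was at 17.55, 23.14 and 23.03 FPKM with a log2 fold change of 0.06 (95% interval -0.73 to 0.85), and *Sall4* was at 114.97, 116.24 and 75.69 FPKM with a log2 fold change of -0.23 (95% interval -0.76 to 0.30). *Esrrb* was at 6.42, 7.49 and 1.81 FPKM and *Tfcp2l1* at 11.72, 15.21 and 1.03 FPKM. Both were lowest in replicate 3, and without it their log2 fold changes turned from -0.08 to 0.42 and from -0.36 to 0.58, none of them called. *Sox2* was listed at 0 in replicate 1 and was at 1.66 and 2.00 FPKM in the other two, its highest values in the series. With no filter on low values its log2 fold change was 0.95 (SE 0.40, limma adjusted p = 0.393). *Sox21*, which shares 271 bases at 86.3% identity with *Sox2*, averaged 18.5 FPKM in MFN1-KD and 6.22 FPKM in control.

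In both knockdowns replicate 3 was the lowest library for most of the factors but the highest for some. MFN1-KD replicate 3 had the least *Pou5f1*, *Sall4*, *Klf5*, *Esrrb*, *Tfcp2l1* and *Zfp42* of its group, but the most *Klf4* and *Sox2*. H3.3-KD replicate 3 had the least *Pou5f1*, *Nanog*, *Klf4*, *Klf5*, *Esrrb* and *Zfp42* of its group, but the most *Klf17* and *Sox2*. The spread of *Klf5* and *Klf17* was small in MFN1-KD, with SDs of 1.36 and 0.656 FPKM, against 12.8 and 11.4 FPKM in control.

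The direct comparison of the knockdowns, in which the controls do not enter the difference, set them apart at 4 factors. *Pou5f1* was higher in H3.3-KD than in MFN1-KD by 6.16 on the log2 scale (SE 0.68, limma adjusted p = 1.49e-04), rank 15 of the 13011 genes. *Klf17* was higher by 3.41 (SE 0.30, limma adjusted p = 4.89e-05) and *Esrrb* by 1.65 (SE 0.45, limma adjusted p = 0.0151). The *Esrrb* call was lost without H3.3-KD replicate 2 (adjusted p = 0.0532) and when GC and length trends were removed (0.64 on the log2 scale). *Sall4* was lower, at -1.08 (SE 0.24, limma adjusted p = 0.00541), and slipped just under 2-fold without MFN1-KD replicate 1 (-0.98) or replicate 2 (-0.97). *Klf5* had a limma adjusted p of 0.0285 but differed by 0.79, less than 2-fold. *Zfp42* was at 0.92 (95% interval 0.08 to 1.77, limma adjusted p = 0.0773), but it was called without H3.3-KD replicate 3 (1.29) or without MFN1-KD replicate 2 (1.25). Of all genes 25.8% were called higher and 9.44% lower in this comparison, and all libraries of H3.3-KD lay above those of MFN1-KD for 33.1% and below for 14.8%, against 4 and 1 of the 10 factors. Every H3.3-KD library lay above and every MFN1-KD library below all controls for *Pou5f1* and *Klf17*, a pattern that 5.19% of all genes tested showed.

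Paralogues and partners of the factors give their surroundings. For each family, the paralogue with the highest control level was taken. *Klf2*, a naive-state KLF factor, was at 37.38, 33.75 and 14.52 FPKM in control and rose to 137.16, 108.57 and 210.41 FPKM in H3.3-KD (log2 fold change 2.42, SE 0.38). *Sox15*, the most abundant SOX gene among the paralogues, was at 286.22, 366.49 and 299.42 FPKM in control. It rose in H3.3-KD to 872.06, 789.46 and 689.50 FPKM (1.30, SE 0.32) and fell in MFN1-KD to 194.11, 110.88 and 71.31 FPKM (-1.44, SE 0.32). *Esrra*, a metabolic paralogue of *Esrrb*, rose in H3.3-KD from 2.73, 2.69 and 1.94 FPKM to 26.38, 26.99 and 45.98 FPKM (3.27, SE 0.33). *Yy1*, a relative of *Zfp42*, rose in both knockdowns (by 1.55 after MFN1 knockdown and by 1.02 after H3.3 knockdown, each with an SE of 0.33). *Tfcp2*, *Pou2f1* and *Sall1* were not called in either knockdown. Of the 20 paralogues tested, 10 rose and 0 fell in H3.3-KD, *Klf16* (3.07) among them, beside 20.2% and 7.54% of all genes, and 1 rose and 1 fell in MFN1-KD. Their median log2 fold changes were 1.14 and 0.36, against 0.26 and -0.08 for all genes.

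Of 33 partners and co-expressed genes of the network, 9 rose and 2 fell in H3.3-KD, close to the shares of all genes (20.2% and 7.54%), and the median log2 fold change was 0.66 against 0.26 for all genes. *Lin28a*, an RNA-binding protein that blocks let-7 maturation, rose from 2.03, 1.62 and 2.15 FPKM to 18.51, 17.58 and 11.84 FPKM (2.51, SE 0.49), and *Nacc1*, a BTB-domain partner of NANOG, rose by 2.50 (SE 0.32) from control levels under 1 FPKM. *Nr5a2*, a nuclear receptor active in cleavage-stage embryos that is named here after its values were seen, rose by 2.06 (SE 0.25). *Prdm14*, which represses FGF signalling in the naive state, fell from 4.57, 5.02 and 4.47 FPKM to 0.92, 1.87 and 0.29 FPKM (-1.56, SE 0.36), and *Dppa5a*, among the most abundant transcripts of the list, fell by 1.27 on the log2 scale (SE 0.20). In MFN1-KD *Sox15* was the only one of the 33 called, beside 1.09% of all genes called higher and 2.05% called lower, and the median of the 33 was -0.04.

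Signalling genes around the network were counted in the same way, beside the 20.2% of all genes called higher and 7.54% called lower in H3.3-KD. Of 8 LIF and STAT3 genes tested 4 rose and 0 fell, and *Stat3* (0.71), *Tyk2* (0.38), *Jak1* (-0.37) and *Jak2* (-0.99) were not called. *Socs3*, a STAT3 target that inhibits the pathway, went from 6.68, 4.18 and 4.42 FPKM to 37.64, 86.91 and 238.80 FPKM (3.96, SE 0.54), and the kinase genes *Pim3* and *Pim1* rose by 2.44 and 2.00. Of 17 FGF and ERK genes 10 rose and 1 fell. *Map2k2* (1.97), a kinase of the cascade, was among those that rose, and *Spry2*, a feedback inhibitor of it, fell from 85.33, 60.89 and 115.18 FPKM to 21.59, 18.71 and 33.61 FPKM (-1.78, SE 0.32). The medians were 1.34 and 1.32 on the log2 scale, against 0.26 for all genes. In MFN1-KD limma called 0 of the LIF and STAT3 genes (1 passed as lower at the study's threshold). Of the FGF and ERK genes it called 1 higher and 0 lower, beside 1.09% and 2.05% of all genes. The medians in MFN1-KD were 0.05 for the LIF and STAT3 genes and 0.25 for the FGF and ERK genes.

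For lineage and stage genes the same shares of all genes apply, 20.2% called higher and 7.54% lower in H3.3-KD with a median log2 fold change of 0.26, and 1.09% and 2.05% with a median of -0.08 in MFN1-KD. Of 13 trophectoderm genes, 7 rose and 1 fell in H3.3-KD, with a median of 1.27. *Hand1* rose by 3.31 and *Aqp3* by 2.48, *Cdx2*, the trophectoderm determinant whose product represses *Pou5f1*, was at 0.09, 0.08 and 0.06 FPKM in control and at 2.21, 6.24 and 0.57 FPKM in H3.3-KD, and *Tspan8* fell by 2.32. *Gata4* (1.32) was called higher among 5 primitive endoderm genes (median 0.39), and *Pou3f1* (2.08) among 5 formative and primed genes (median 0.28). Of 15 genes of the 2-cell stage, *Tdpoz4* (4.49) and *Tdpoz3* (3.09) rose and 0 fell (median 1.41), but these belong to a multicopy family between whose members reads may be split. Of 15 maternal transcripts *Khdc3* rose (1.85) and *Npm2* fell (-1.11), with a median of -0.15, and 3 of the 8 embryo markers rose (median 0.92), *Pard6b*, *Tead4* and *Tfap2c*, with changes of 1.38, 1.28 and 1.36. In MFN1-KD none of these genes was called by limma at the adjusted p, and their medians were -0.23 for trophectoderm, 0.16 for primitive endoderm, 0.32 for formative and primed, 0.41 for 2-cell stage, -0.32 for maternal transcripts and 0.06 for embryo markers. At the study's threshold 3 maternal transcripts passed as lower there and 2 genes of the 2-cell stage as higher. *Krt18* also passed as lower, counted both as 1 trophectoderm gene and as 1 embryo marker. *Tead4* and *Tfap2c*, called higher in H3.3-KD, likewise count in both of these lists. *Cdx2* is named here after its values were seen.

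**Figure D4:**
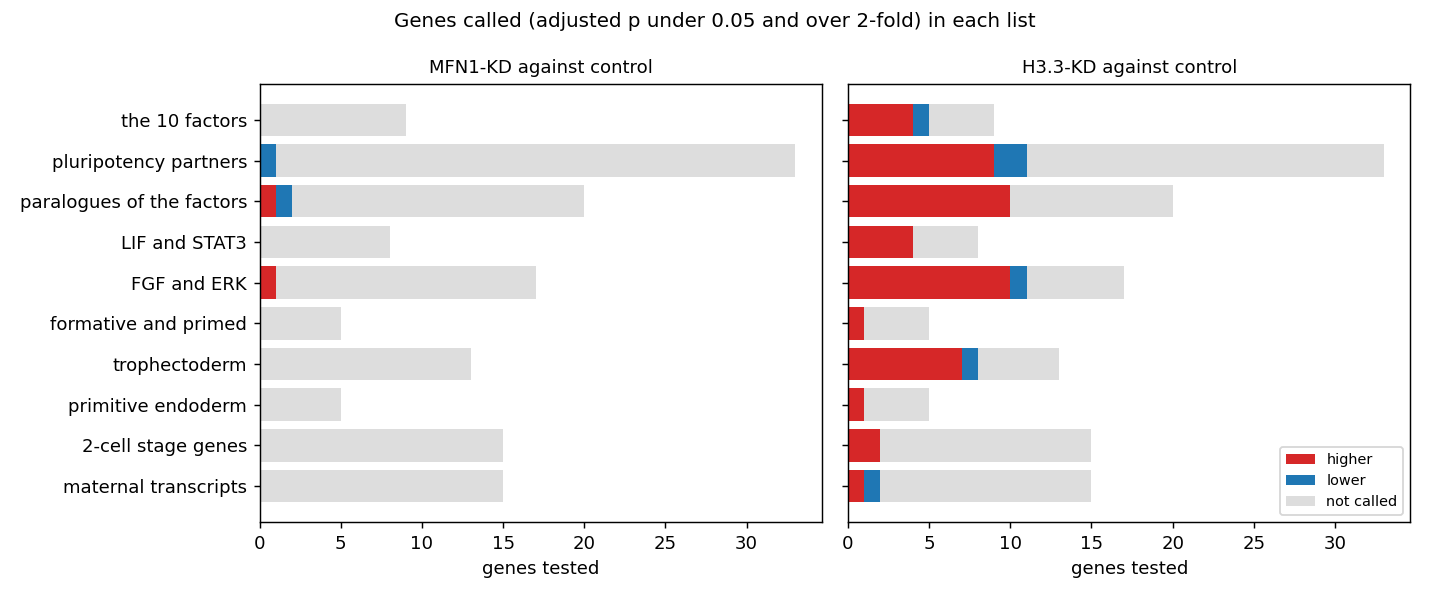
Number of genes called higher (red), lower (blue) or not called (grey) at an adjusted p under 0.05 with more than 2-fold, in each gene list, for MFN1-KD and H3.3-KD against control. In H3.3-KD 4 factors rose and 1 fell of 9, beside 9 and 2 of 33 partners and 10 and 0 of 20 paralogues; in MFN1-KD 0 factors were called.

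Some values may include reads of other loci, since the strand setting of the counting is not stated and some stretches resemble other genes. *Pou5f1* shares 170 exonic bases with the antisense gene *Gm19553* (0.56 FPKM on average in H3.3-KD and listed at 0 in the other groups), and *Sall4* shares 290 with *Gm14261* on the opposite strand (at most 0.067 FPKM on average in any group). The *Pou5f1*-like pseudogene *Gm5712* and the *Klf5*-like *Gm2203* were listed at 0 in all groups, and *Nanog-ps1* and *Nanog-ps2* were listed at 0 in all libraries. *Nanog* and *Tfcp2l1* share stretches of at least 150 bases at 85% identity or more with 835 and 38 other genes. The longest of these were 285 and 371 bases, of longest transcripts of 2211 and 9269 bases. How far such stretches altered either value was not tested.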

How the data were processed

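Smart-Seq2 libraries were made by the authors with oligo-dT priming, trimmed with cutadapt 1.16 and mapped with STAR to mm10, per the labels and the methods. The values were deposited as FPKM with 2 decimals. The program behind FPKM, its annotation and its strand setting are not given in the sources used here, and the depth is unknown. The 13011 of 55335 genes that averaged 1 FPKM or more over 9 libraries were kept, and a linear model of log2(FPKM + 1) was fitted to all genes and libraries with limma 3.58.1 (trend and robust) in R 4.3.3, with a pseudocount of 1, so changes of low genes are understated. P-values were Benjamini-Hochberg adjusted over all genes tested. Count tests could not be run on FPKM. The pipeline was tested on simulated data. GC content, length and overlaps came from GENCODE M21 (GRCm38), promoters from RefSeq (GRCm38.p6), and shared sequence from BLAST+ (at least 150 bases, at least 85% identity). Motifs were searched with Python 3.11.15.

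The 10 factors and all gene lists were chosen with earlier results of these data known. Some genes are in several lists, such as *Sox15* and *Klf2* among both partners and paralogues, so counts of different lists are not independent. All factors were named. From each list at most the 3 called genes with the largest change in a comparison were named, together with the paralogue of each family with the highest control level and the targeted genes. *Nr5a2* and the 2 partners called lower in H3.3-KD, *Prdm14* and *Dppa5a*, were named outside this rule, as were some genes that were not called. Some genes that this rule names are not reported here. Alternatives covered scaling (median ratio, upper quartile), filtering (none, or an average of 5 FPKM or more), the pseudocount (0.1), fits of 6 libraries per comparison, a block for replicate number, library weights, removal of GC and length trends, and leaving out single libraries. ChIP and other data of the study were not used here.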

Additional observations from a re-analysis of the deposited data

Results flagged for a closer look

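For 2 factors, all 3 libraries of one knockdown lay above every control while all 3 libraries of the other lay below, and the difference between the knockdowns passed its own test. Passing that test was part of the rule by which these factors were flagged. The order of libraries alone, H3.3-KD above and MFN1-KD below all controls, was seen for 5.19% of the 13011 genes tested. *Pou5f1* was higher in H3.3-KD than in MFN1-KD by 6.16 on the log2 scale (SE 0.68, limma adjusted p = 1.49e-04). Its libraries were at 63.06 to 392.19 FPKM in H3.3-KD, 5.10 to 8.90 FPKM in control and 0.30 to 3.68 FPKM in MFN1-KD. *Klf17* was higher by 3.41 (SE 0.30, limma adjusted p = 4.89e-05), with 194.71 to 401.20, 29.84 to 50.07 and 23.86 to 25.17 FPKM. In MFN1-KD alone neither factor was called against control (limma adjusted p = 0.217 and 0.33). There 96 of 1282 genes in the GC decile of *Pou5f1* and 413 of 1282 in that of *Klf17* fell as far, themselves included. In the direct comparison the median log2 fold change rose with GC content, from -0.54 in the lowest decile to 1.31 in the highest. *Pou5f1* lies in the highest, where 52.5% of genes were called higher and 1 of 1282, itself, changed as far upward. For *Klf17*, in decile 6, it was 14 of 1282, itself included. Over all 18 alternatives the difference stayed between 4.90 and 6.99 for *Pou5f1* and between 2.55 and 3.65 for *Klf17*, with adjusted p at most 0.00163 and 6.51e-04.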

How the results depend on the processing

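Over 18 alternatives, 453 of 486 factor values kept their direction and side of the threshold, 13 lost a call, 4 gained one and 16 changed sign, none of them called. *Pou5f1*, *Klf17* and *Sall4* stayed called in H3.3-KD against control in all 18. With upper-quartile scaling and with GC and length trends removed, 3 rather than 5 factors were called there, since *Klf5* fell under 2-fold and *Esrrb* lost its call. *Esrrb* was also lost without a filter (adjusted p = 0.0655), and in that comparison its adjusted p ranged from 3.38e-04 to 0.25. Leaving out each library in turn gave 0 called factors in MFN1-KD, 4 to 5 in H3.3-KD and 3 to 5 in the direct comparison. Library weights turned the uncalled log2 fold changes in MFN1-KD to -0.093 for *Nanog*, 0.26 for *Esrrb* and 0.16 for *Tfcp2l1*, and that of *Zfp42* in H3.3-KD to 0.10. GC and length removal turned *Klf4* in H3.3-KD to -0.50, and in the direct comparison made *Klf4* called (-1.65) and *Esrrb* uncalled (0.64). The cause was not tested.
With libraries left out in turn, these uncalled log2 fold changes crossed 0: in MFN1-KD *Nanog* (-0.077 to 0.19), *Esrrb* (-0.37 to 0.42) and *Tfcp2l1* (-0.92 to 0.58), in H3.3-KD *Nanog* (-0.53 to 0.077) and *Zfp42* (-0.28 to 0.27), and in the direct comparison *Nanog* (-0.60 to 0.014) and *Tfcp2l1* (-1.27 to 0.23). *Zfp42* was called in the direct comparison without H3.3-KD replicate 3 (1.29), without MFN1-KD replicate 2 (1.25) and with library weights (1.06).
The replicate number as a block called 0, 5 and 4 factors, the same counts as without it. Deviations of same-numbered libraries correlated between -0.05 and 0.16 (9 pairs across genes), and those of different numbers between -0.12 and 0.07 (18 pairs). Deviations sum to 0 within a group, so these correlations are not independent of each other. The numbers were taken as names only, and whether they mark a batch was not tested. FPKM carries no depth, which limits what can be said of *Sox2*.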
